A study of Ictidomys tridecemlineatus with 15 samples.

Results

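The liver makes bile acids from cholesterol and pumps them into the bile canaliculus, and 10 genes of that pathway were followed here through the hibernation cycle of the 13-lined ground squirrel. They are the synthesis enzymes Cyp7a1, Cyp8b1, Cyp27a1, Cyp7b1 and Baat, the canalicular exporters Abcb11, Abcb4 and Abcc2, and the nuclear receptors Nr1h4 and Nr0b2. They were found by their symbols in the names of the transcription units, which are the redefined gene bodies on which reads were counted, and 9 units of the 6324 in the table carried one of them. Of these, 6 carried a single gene name and 3 were merged with neighbours that overlapped them, so that Abcb4 was counted together with LOC110596954, Nr1h4 with Gas2l3, and Nr0b2 with Gpn2 and Gpatch3. The counts of a merged unit cannot be divided among its genes, and these are called the Abcb4, Nr1h4 and Nr0b2 units below. Baat, which joins bile acids to taurine or glycine, had no unit of its name and was dropped.

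Transcription was measured by global run-on sequencing (GRO-seq), in which nuclei are isolated and every polymerase that was at work on a gene extends and labels its RNA. All nuclei came from frozen liver and were labelled in the same short warm incubation, so the reads report where polymerases were engaged in the animal and not how fast they moved there or how much mRNA the cell held. All animals were laboratory-housed females from a breeding colony, carried implanted temperature recorders, and were untreated otherwise; each library came from its own animal, and ages are not given in the sources used here. The states were summer active (SA, warm animals before the hibernation season began), interbout aroused (IBA, warm again between torpor bouts), entrance into torpor (Ent, cooling), early torpor (ET, cold) and late torpor (LT, cold). SA, IBA, Ent and ET had 3 libraries each and LT had 2, with the third LT library, which was removed by the study for its quality, not analysed here. Library totals ran from 3713883 to 8884763 counts on the units.

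The synthesis enzymes form 2 linked routes. Cyp7a1 is the rate-limiting enzyme that opens the classic route, and Cyp8b1 adds the hydroxyl group that makes cholic acid. Cyp27a1 and Cyp7b1 act in the alternative route, with Cyp27a1 also starting the oxidation of the side chain in both. Abcb11, the bile salt export pump, moves conjugated bile acids into the canaliculus, Abcb4 flips phosphatidylcholine into bile to protect the duct from them, and Abcc2 exports bilirubin and other conjugates. Nr1h4, the farnesoid X receptor, is the bile acid sensor that is known to raise Abcb11 and Nr0b2, and Nr0b2, the small heterodimer partner, is known to restrain Cyp7a1 and Cyp8b1. All of these are known to act in hepatocytes.

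Values are CPM, the counts scaled to the normalized library size, so that each is a share of a library's transcription and not an absolute rate. A fall in the transcription of the whole genome, as torpid animals may have, would not show. The states were compared together and in 5 neighbouring or cycle-closing pairs, and the warm states SA and IBA were set against the torpid states ET and LT. A unit was called at an adjusted p of 0.001 or less over the 5 states and of 0.05 or less in a contrast, adjusted over all 6324 units in edgeR. Errors of log2 fold changes are standard errors (SE).

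Transcription in torpor was low for the synthesis enzymes and high for 2 of the 3 exporters. From SA and IBA to ET and LT, 7 of the 9 units were called, against 64.5% of all units in the same contrast, so that the number called is not particular to these genes. Cyp7a1, Cyp8b1, Cyp27a1, Cyp7b1 and the Nr1h4 unit were lower in torpor (called lower among all units: 33.7%), and Abcb11 and the Abcb4 unit were higher (called higher among all units: 30.8%). Abcc2 and the Nr0b2 unit did not pass. The median log2 fold change was -0.997 over the 9 units and -0.04 over all units. Over the 5 states together, Cyp7a1, Cyp8b1, the Abcb4 unit and the Nr0b2 unit passed, which are 4 of 9 against 25.5% of all units, and 7 of 9 had an adjusted p of 0.05 or less, against 62.0%. The plot of each library shows that Cyp7a1, Cyp8b1, Cyp27a1, Cyp7b1 and Abcb11 had their widest spread among replicates, on the log scale, in SA.

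**Figure D1:**
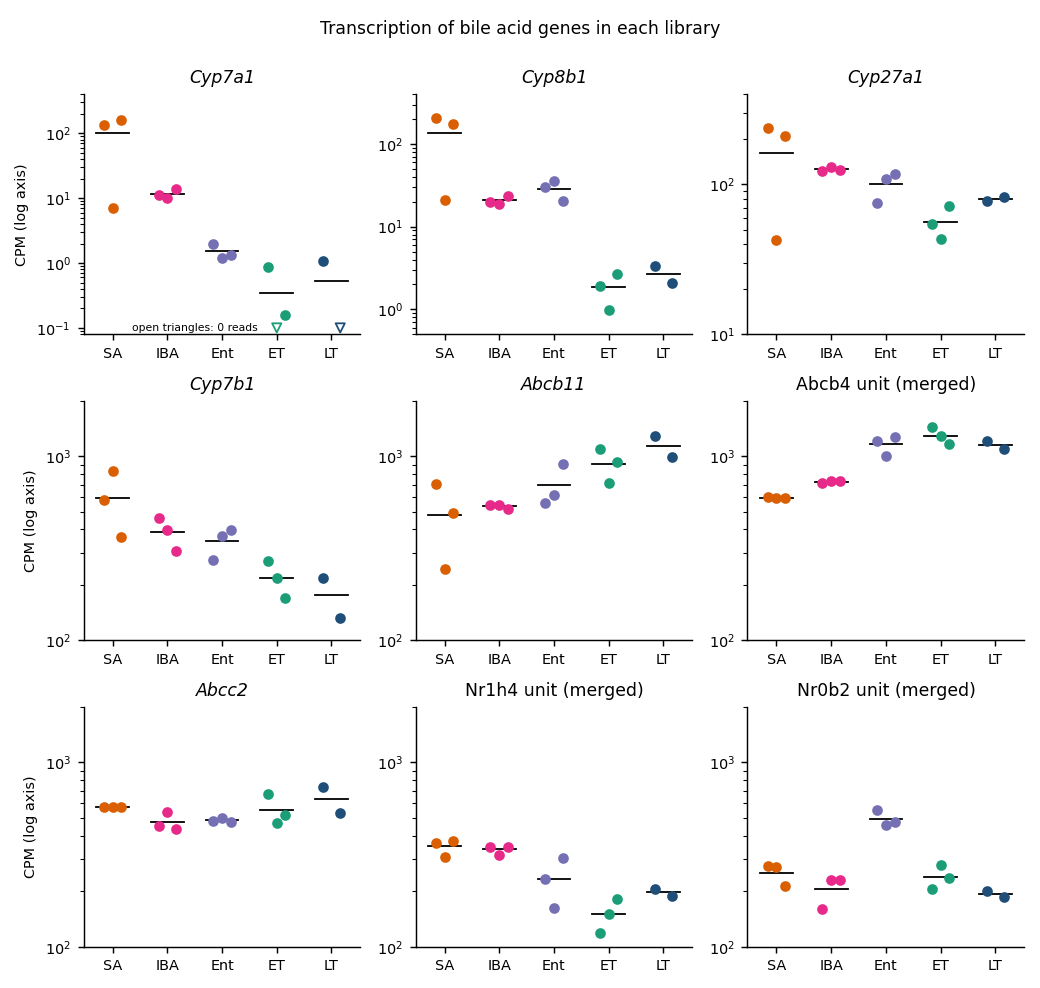
CPM (log axis, with a different range for Cyp7a1, Cyp8b1 and Cyp27a1) of the 9 units in each of the 14 libraries, by state (SA, IBA, Ent, ET, LT). Points are libraries, black lines are state means, and open triangles mark libraries with 0 reads, drawn at the foot of the axis. Cyp7a1 runs from 158 CPM in 1 SA library to 0 reads in 1 ET and 1 LT library, and the 3 exporters stay above 200 CPM in every library.

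Cyp7a1 (unit CYP7A1, plus strand of Itri6, 70180323 to 70189278, 8956 nt in the HiC_Itri_2 build) had the widest range of the 9 units. Its level was 136, 7.15 and 158 CPM in SA, 11.4, 10.2 and 13.7 in IBA and 1.98, 1.21 and 1.33 in Ent. In torpor it was 0.884, 0 and 0.160 CPM in ET and 1.06 and 0 in LT. SA replicate 2 therefore lay below every IBA library, whereas the other SA libraries lay far above them, and every Ent, ET and LT library lay below every IBA library. The ET and LT values rest on 7 reads in each state, where a count of 0 still allows 0.589 CPM in ET replicate 2 and 0.442 in LT replicate 3 (a limit of 3 counts, which covers counting error only). Pooled, the reads gave 12.0 CPM in IBA (95% Poisson interval 10.3 to 13.9) against 1.53 (1.05 to 2.16) in Ent, 0.386 (0.155 to 0.795) in ET and 0.522 (0.210 to 1.08) in LT. The pooled levels thus fell from IBA through Ent to ET and LT, and the interval of LT overlapped those of both Ent and ET. These intervals leave out the spread between animals, so they do not settle an order of the states.

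The change of Cyp7a1 from the warm to the torpid states was the lowest log2 fold change of the 6324 units, at -6.21 ± 0.88 (SE), which is 73.9-fold lower (adjusted p = 5.44e-05). The size of that fold rests on few reads, and it became -7.15 without ET replicate 1 and -8.55 without LT replicate 1, where 1 read and no read remain in the state, with adjusted p of 0.000123 and 0.000471. It was called over the 5 states as well (adjusted p = 6.04e-05). From IBA to Ent, while the animals were still cooling, its log2 fold change of -2.94 ± 0.94 was again the lowest of all units, but it did not pass (adjusted p = 0.0513), and it passed in DESeq2 (adjusted p = 0.0428) and in edgeR without SA replicate 2 (adjusted p = 0.00318). In that step 2 of the 9 units were called, against 16.1% of all units. Both were higher, against 8.76% of all units called higher. On return to warmth, Cyp7a1 rose from LT to IBA by 4.44 ± 1.31 on the log2 scale (adjusted p = 0.0137). Without LT replicate 3 this became 3.46 (adjusted p = 0.0982), and without LT replicate 1, where the remaining library has no read, the fit gave 9.13, a number set by the prior count and no measure of size. From Ent to ET (-1.94 ± 1.44, adjusted p = 0.334) and from ET to LT (0.44 ± 1.92, adjusted p = 0.985) the few reads left no detectable difference.

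Cyp8b1 (unit CYP8B1, plus strand of Itri2, 199912174 to 199918682, 6509 nt) was called lower from Ent to ET and not from IBA to Ent. It stood at 209, 21.2 and 174 CPM in SA, 19.9, 19.0 and 23.6 in IBA, and 30.4, 35.2 and 20.6 in Ent. In ET it was 1.91, 0.982 and 2.71 CPM and in LT 3.33 and 2.06. Ent overlapped IBA, and every ET and LT library lay below every library of the other states. From IBA to Ent the log2 fold change was 0.46 (95% interval -0.67 to 1.58, adjusted p = 0.619), and from Ent to ET it was -3.90 ± 0.71, which is 14.9-fold lower (adjusted p = 0.0021) and at rank 6 from the lowest among all units. The drop of Cyp7a1 and that of Cyp8b1 were not tested against each other. Cyp8b1 was 23.3-fold lower in ET and LT than in SA and IBA (log2 fold change -4.54 ± 0.55, adjusted p = 1.55e-05). It rose from LT to IBA by 2.95 ± 0.79 (adjusted p = 0.00825), or by 2.64 without LT replicate 3 (adjusted p = 0.0704).

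Between the warm states, Cyp7a1 and Cyp8b1 were the 2 units called from SA to IBA, both lower, against 5.22% of all units called and 2.85% called lower. The log2 fold changes were -3.09 ± 0.80 for Cyp7a1 (8.50-fold, adjusted p = 0.0438) and -2.69 ± 0.59 for Cyp8b1 (6.46-fold, adjusted p = 0.0198), but the groups overlapped, since SA replicate 2 held Cyp8b1 within the IBA range and Cyp7a1 below it. Without SA replicate 2 the changes were -3.63 (adjusted p = 0.00181) and -3.19 (adjusted p = 0.000329). Leaving out SA replicate 1 (-2.82 and -2.24, adjusted p = 0.0811 and 0.0503), SA replicate 3 (-2.60 and -2.46, adjusted p = 0.121 and 0.0537) or any 1 of the IBA libraries ended both calls, and leaving out any 1 Ent library or ET replicate 3 ended that of Cyp7a1. Both calls were also lost in limma-voom, in a fit of SA and IBA alone, and with the season of collection as a term (adjusted p = 0.0959 for Cyp7a1 and 0.0644 for Cyp8b1). Within the season that holds all 3 IBA animals and SA replicates 2 and 3, the log2 fold changes were -2.83 (adjusted p = 0.189) and -2.25 (adjusted p = 0.164).

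SA replicate 2 decided several of these values. Of the 6322 units with at least 5 CPM in an SA library, it lay at least 4-fold below both other SA libraries in 25, or 0.395%, and 3 of those were Cyp7a1, Cyp8b1 and Cyp27a1. Its mean Spearman correlation with the other SA libraries, 0.916 over units, was the lowest that any library had with its own group. Its summed level of the 6 hepatocyte markers, of 10 listed, that had a unit of their own (Apob, Ttr, Tf, Cps1, Fgb and Hnf4a) was 20159 CPM, against 12486 and 9130 in the other SA libraries. It shares its season with SA replicate 3. Without it the members called, beside the number of the 6324 units called in the same fit, were 5 over the 5 states (1598), 3 between SA and IBA (392), 3 between IBA and Ent (1264), 4 between Ent and ET (2060), 7 between LT and IBA (3341) and 7 between the warm and torpid states (4095). The calls gained were those of Cyp27a1 over the 5 states, from SA to IBA (-0.82, adjusted p = 0.0415), from Ent to ET (-0.84, adjusted p = 0.00753) and from LT to IBA (0.67, adjusted p = 0.0228), and that of Cyp7a1 from IBA to Ent (-2.94, adjusted p = 0.00318). The fit estimates the spread over all states, SA included.

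Cyp27a1 (unit CYP27A1, plus strand of Itri6, 174871449 to 174907431, 35983 nt) moved less. It stood at 237, 42.6 and 210 CPM in SA, 124, 132 and 126 in IBA, 75.1, 109 and 118 in Ent, 54.2, 43.2 and 71.5 in ET, and 77.4 and 82.3 in LT. The low SA replicate 2 made SA overlap ET, and the IBA libraries agreed closely. From the warm to the torpid states the log2 fold change was -1.10 ± 0.34 (adjusted p = 0.0115), and no single step passed. Over the 5 states it did not pass (adjusted p = 0.0618), but without SA replicate 2 it did (adjusted p = 0.000107).

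Cyp7b1 (unit CYP7B1, minus strand of Itri6, 65713367 to 65884657, 171291 nt) was lower in torpor, but no single step on the way into torpor passed. Its values were 577, 830 and 363 CPM in SA, 460, 399 and 305 in IBA, 272, 368 and 400 in Ent, 271, 218 and 169 in ET, and 219 and 133 in LT. Every torpid library lay below every warm one. The log2 fold change from warm to torpid was -1.28 ± 0.23 (adjusted p = 0.000352). From LT to IBA it rose by 1.14 ± 0.35 (adjusted p = 0.016), or by 0.82 without LT replicate 3 (adjusted p = 0.15). Unlike Cyp7a1 and Cyp8b1, Cyp7b1 was not low in SA replicate 2, where it had its highest value.

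The exporters ran the other way or stayed level. Abcb11 (minus strand of Itri6, 130999083 to 131095675, 96593 nt) stood at 709, 245 and 489 CPM in SA and 544, 543 and 517 in IBA. It then had 559, 617 and 904 CPM in Ent, 1087, 711 and 929 in ET, and 1280 and 983 in LT. ET and LT lay above all SA and IBA libraries, by a narrow margin in ET replicate 2. From warm to torpid the log2 fold change was 1.0 ± 0.23, a rise close to 2.0-fold (adjusted p = 0.00224), and from LT to IBA it fell by 1.08 ± 0.34 (adjusted p = 0.0198). The LT to IBA call was lost without LT replicate 1 (-0.88, adjusted p = 0.137) and without IBA replicate 3 (-1.06, adjusted p = 0.0526), and no other single step passed.

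The Abcb4 unit (minus strand of Itri2, 26536522 to 26661045, 124524 nt) was even among the SA and the IBA replicates. It had 597, 594 and 593 CPM in SA and 711, 729 and 728 in IBA. In the later states it had 1209, 1004 and 1267 CPM in Ent, 1435, 1279 and 1163 in ET, and 1214 and 1089 in LT. Every Ent, ET and LT library was above every SA and IBA library. Its rise was already present in Ent, where it was 0.68 ± 0.13 above IBA (adjusted p = 0.00717), and Ent to ET brought no detectable further change (0.16, 95% interval -0.10 to 0.42). From warm to torpid it rose by 0.90 ± 0.099, or 1.86-fold (adjusted p = 7.15e-06), and from LT to IBA it fell by 0.67 ± 0.15 (adjusted p = 0.00243).

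Abcc2 (minus strand of Itri1, 34244802 to 34302408, 57607 nt) passed in no contrast. Its values were 576, 570 and 573 CPM in SA, 454, 538 and 438 in IBA, 479, 496 and 477 in Ent, 672, 468 and 518 in ET, and 735 and 530 in LT. The warm and torpid ranges overlapped. The log2 fold change from warm to torpid was 0.18, with a 95% interval of -0.06 to 0.41 (adjusted p = 0.206), and a fit to total counts with no composition factor gave 0.29 (adjusted p = 0.0375), where the median of all units also moved up by 0.119. No step passed in edgeR, and DESeq2 called it lower from LT to IBA (adjusted p = 0.0424).

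The Nr1h4 unit (minus strand of Itri4, 20263185 to 20354272, 91088 nt) followed the synthesis enzymes. It stood at 367, 308 and 375 CPM in SA, 350, 314 and 348 in IBA, 233, 163 and 304 in Ent, 119, 151 and 181 in ET, and 205 and 189 in LT. The warm libraries were all above the others. Ent overlapped ET and LT, since Ent replicate 2 (163 CPM) lay below ET replicate 3 and both LT libraries. From warm to torpid its log2 fold change was -0.997 ± 0.16 (adjusted p = 0.000119). It was called from Ent to ET at -0.63 ± 0.21 (adjusted p = 0.0353), a call that was lost without Ent replicate 1 (-0.63, adjusted p = 0.0809), Ent replicate 3 (-0.40, adjusted p = 0.151), ET replicate 1 (-0.49, adjusted p = 0.124) or ET replicate 2 (-0.64, adjusted p = 0.0751). Its rise from LT to IBA, 0.77 ± 0.23 (adjusted p = 0.0152), was lost without LT replicate 1 (0.84, adjusted p = 0.0609) or LT replicate 3 (0.72, adjusted p = 0.0911).

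The Nr0b2 unit (minus strand of Itri11, 45455797 to 45494540, 38744 nt) peaked in Ent. It had 273, 271 and 213 CPM in SA, 159, 230 and 229 in IBA, 549, 459 and 474 in Ent, 205, 279 and 236 in ET, and 201 and 186 in LT. All 3 Ent libraries lay above all 11 others. From IBA to Ent it rose by 1.26 ± 0.17, or 2.39-fold (adjusted p = 0.00251), and from Ent to ET it fell by 1.04 ± 0.17 (adjusted p = 0.00125). Warm and torpid states differed by -0.08 (95% interval -0.33 to 0.17, adjusted p = 0.595), and by 0.04 in the opposite direction with total counts and no composition factor (adjusted p = 0.828). Since Gpn2, a GTPase, and Gpatch3, a nucleic acid binding protein, are counted in the same unit, the peak cannot be assigned to Nr0b2 alone.

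By step, then, different members were called at different points of the cycle, and their timing was not tested against each other. From IBA to Ent the Abcb4 and Nr0b2 units rose (called higher among all units: 8.76%), and the fall of Cyp7a1 did not pass (-2.94, adjusted p = 0.0513). From Ent to ET, Cyp8b1 and the Nr1h4 and Nr0b2 units were lower, 3 of 9 against 28.8% called and 13.4% called lower among all units. From ET to LT edgeR called none of the 9, against 0.269% of all units, with 0 at an unadjusted p under 0.05 (8.70% of all units) and 0 by DESeq2. From LT to IBA 6 of 9 were called, with Cyp7a1, Cyp8b1, Cyp7b1 and the Nr1h4 unit higher and Abcb11 and the Abcb4 unit lower, against 49.8% called among all units (25.0% higher and 24.8% lower). At an adjusted p of 0.001 or less, 5 of 9 were called from warm to torpid (36.3% of all units) and 0 in the steps from SA to IBA (0.0158%), IBA to Ent (0.0316%), Ent to ET (2.21%), ET to LT (0%) and LT to IBA (17.4%). The contrasts share libraries, so that they are not separate lines of evidence.

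**Figure D2:**
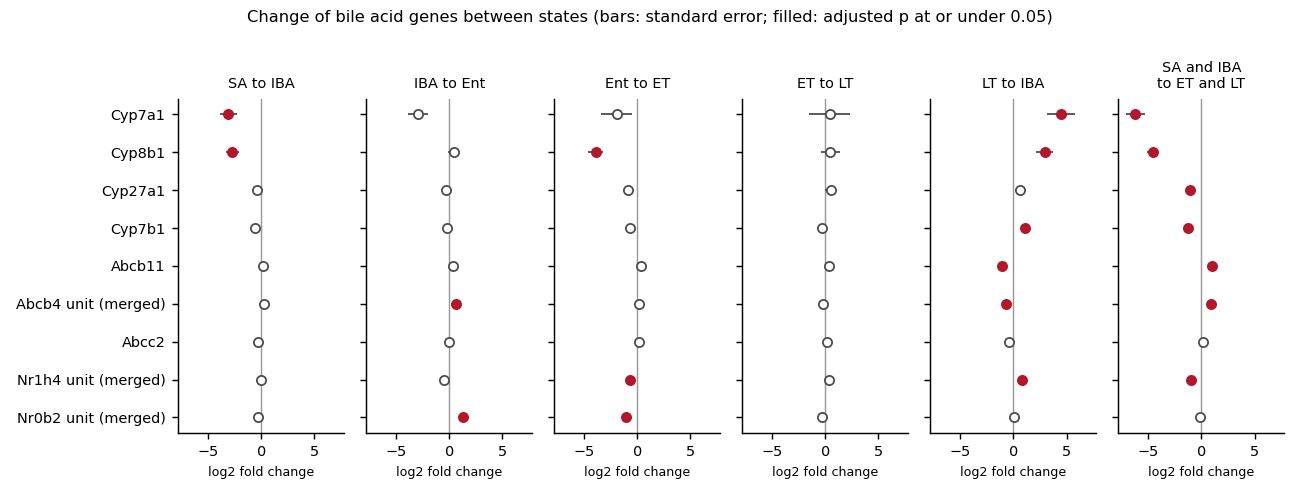
Log2 fold change of the later over the earlier state for the 9 units in each of 6 contrasts, with standard errors as bars. Filled red points passed an adjusted p of 0.05, and open points did not. Cyp7a1 and Cyp8b1 span the widest range, to -6.21 and -4.54 from warm to torpid, whereas the exporters stay within 1.08 of 0 throughout.

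Compared per kilobase of unit, which allows levels of different genes to be set side by side, the balance between the members changed. In SA the mean level was 11.2 CPM per kb for Cyp7a1 and 20.7 for Cyp8b1, against 4.98 for Abcb11. In IBA, Abcb11 stood at 5.54 CPM per kb, Cyp8b1 at 3.20 and Cyp7a1 at 1.32. In LT, Abcb11 stood at 11.7 CPM per kb, Cyp8b1 at 0.414 and Cyp7a1 at 0.0591. The first of these orders rests on SA replicates 1 and 3.

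The season of collection runs alongside these comparisons. The study's animal list places SA replicate 1, Ent replicates 1 and 2 and LT in 1 season, ET in another, and the rest in the last, so that ET cannot be told apart from its season. Within the first, the SA library had 136 CPM of Cyp7a1, against 1.06 and 0 in the 2 LT libraries. For Cyp8b1 these were 209 against 3.33 and 2.06, and for Abcb11 709 against 1280 and 983. Within the last, Ent replicate 3 lay outside the IBA range for the Abcb4 unit (1267 against 711 to 729 CPM) and for the Nr0b2 unit (474 against 159 to 230). These libraries are part of the contrasts that called the units, and each season offers 1 SA or 1 Ent library here. Their direction is therefore no separate support. With season as a term and ET left out, the LT to IBA calls of Cyp7b1 (0.91, adjusted p = 0.165), Abcb11 (-0.96, adjusted p = 0.161) and the Nr1h4 unit (0.47, adjusted p = 0.213) were lost, and those of Cyp7a1, Cyp8b1 and the Abcb4 unit remained.

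The summed hepatocyte markers were lower in torpor as well, whereas the endothelial and stellate ranges overlapped between warm and torpid states. None of these sums was tested. The summed level of the 6 hepatocyte genes ran from 8725 to 20159 CPM in SA and IBA, from 7122 to 8184 in Ent and from 3688 to 6987 in ET and LT, so that the torpid libraries lay below all others. In these bulk samples fewer cells of a type and less transcription per cell cannot be told apart. Of 7 endothelial markers Stab1, Pecam1 and Kdr had units of their own, summing to 186 to 241 CPM in SA and IBA, 203 to 241 in Ent and 124 to 203 in ET and LT. Of 8 stellate cell markers Rgs5 had one, at 42.4 to 73.0 CPM in SA and IBA, 40.5 to 57.0 in Ent and 32.9 to 56.1 in ET and LT. Of 9 Kupffer cell and leukocyte markers none had one and 1 lay in a merged unit. Hnf4a is also among the regulators below. The part of cell composition in the results was not tested.

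Unit length and neighbours were examined because the short units at the bottom of the range were Cyp7a1 and Cyp8b1. Among the 528 units shorter than 10 kb, the median log2 fold change from warm to torpid was -0.46 and 46.0% were called lower. Cyp7a1 and Cyp8b1 lay far under that median, with Cyp7a1 the lowest of all units and Cyp8b1 at rank 5 from the lowest. Abcb11 belongs to the units of 50 to 100 kb, of which 29.7% were called higher, and the Abcb4 unit to those of 100 to 200 kb, of which 17.0% were. The part of length in the results was not tested.

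**Figure D3:**
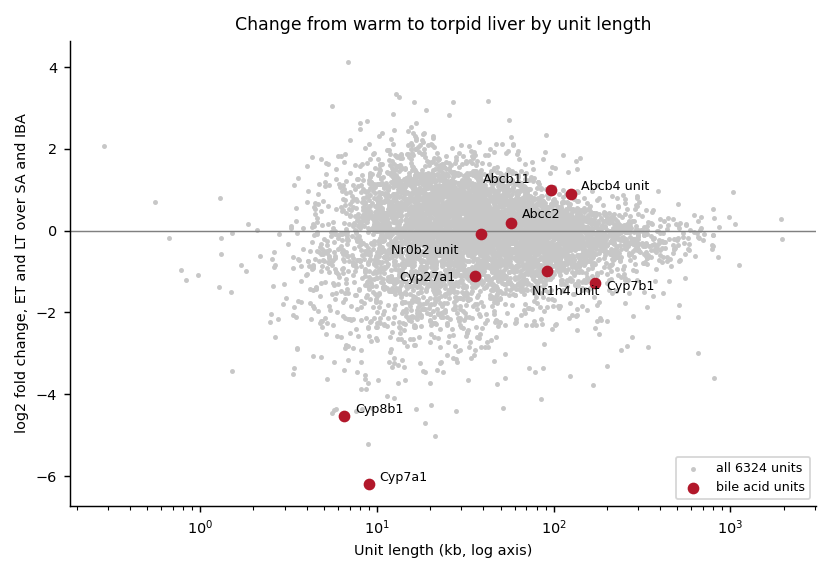
Log2 fold change from warm (SA and IBA) to torpid (ET and LT) states against unit length in kb (log axis), for all 6324 units (grey) and the 9 bile acid units (red, named). Cyp7a1 and Cyp8b1, both under 10 kb, lie at the lower edge, and Abcb11 and the Abcb4 unit, at 1.0 and 0.90, lie above 0 within the range of units of their length.

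Reads can run on from a gene upstream on the same strand. The nearest unit upstream of the Abcb4 unit, Abcb1, lay 32.1 kb away on the same strand and fell by 0.69 from warm to torpid, beside the rise of 0.90 of the Abcb4 unit. For Abcb11 the nearest, Fastkd1, lay 415.5 kb away and fell by 0.83. Upstream of Cyp27a1, Ttll4 lay 12.5 kb away on the same strand and fell by 1.39, beside the fall of 1.10 of Cyp27a1 itself. Prex2, the nearest unit upstream of Cyp7a1, was 1400 kb away. The part of such reads in the results was not tested.

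Other genes of bile acid metabolism were taken from 3 lists, of which 35 genes had a unit of their own. Over the 5 states 14 of the 35 passed, against 25.5% of all units, and the counts below are to be read against that share and, from warm to torpid, against 33.7% of all units called lower and 30.8% called higher. Of the 6 further synthesis genes, Scp2, which helps cleave the side chain in peroxisomes, was the 1 that passed, at 748 CPM ± 125 (SD, n = 3) in SA, 783 ± 24.2 in IBA, 462 ± 41.8 in Ent, 293 ± 28.2 in ET and 271 ± 46.8 (n = 2) in LT. From warm to torpid 2 of the 6 were lower, close to the share among all units, and 0 higher, with Scp2 at -1.44 ± 0.12 (adjusted p = 7.43e-07).

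Of the 13 further transport genes, 7 passed over the 5 states, and from warm to torpid 5 were lower and 3 higher, both close to the shares among all units. Slc10a1, the transporter that takes bile acids up from blood, had 397 CPM ± 172 in SA, 336 ± 57.9 in IBA and 325 ± 37.6 in Ent (SD, n = 3), then 91.0 ± 5.41 in ET and 68.2 ± 22.6 (n = 2) in LT. Its step lay between Ent and ET (-1.84 ± 0.28, adjusted p = 0.000986), the step at which Cyp8b1 fell too, and from warm to torpid it fell by 2.21 ± 0.22 (adjusted p = 3.25e-06). The uptake gene and the export gene Abcb11 thus changed in opposite directions. Abcg5, a subunit of the canalicular sterol exporter, changed by -2.02 ± 0.21 and Fabp1, a cytosolic lipid carrier, by -2.88 ± 0.38. Rab11a, which steers transporters to the canalicular membrane, rose by 1.06 ± 0.15, Ezr, which ties membrane proteins to actin, by 0.97 ± 0.14, and Tmem30a, a partner of lipid flippases, by 0.70 ± 0.10. From SA to IBA 2 of the 13 transport genes were called, against 5.22% of all units. Both were organic anion transporters and higher, Slco1a2 (1.22 ± 0.22, adjusted p = 0.00767) and Slco2b1 (0.94 ± 0.21, adjusted p = 0.0207). They were named after their values were seen.

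Of the 16 regulators, 6 passed over the 5 states, against 25.5% of all units. From warm to torpid 10 were lower and 4 higher, against 33.7% and 30.8% of all units. Nr5a2 and Hnf4a, nuclear receptors known to activate Cyp7a1 and Cyp8b1, were lower, at -1.08 ± 0.11 and -1.10 ± 0.13 (adjusted p = 4.28e-06 and 1.05e-05). Nr5a2 had 482 CPM ± 68.8 in SA, 667 ± 53.8 in IBA, 402 ± 3.83 in Ent, 260 ± 32.0 in ET and 275 ± 49.3 in LT, and its fall was split between IBA to Ent (-0.73 ± 0.15, adjusted p = 0.0076) and Ent to ET (-0.63 ± 0.15, adjusted p = 0.00743). Hnf4a did not pass from IBA to Ent (-0.04 ± 0.17, adjusted p = 0.898) and fell from Ent to ET by 0.92 ± 0.17 (adjusted p = 0.00217). Klb, the co-receptor through which intestinal FGF19 restrains Cyp7a1, fell by 2.10 ± 0.37 (adjusted p = 0.000324) without passing over the 5 states (adjusted p = 0.00245), and lower too were the mRNA-decay factor Zfp36l1 (-2.37 ± 0.21), the clock repressor Bhlhe40 (-2.10 ± 0.26) and the xenobiotic receptor Nr1i2 (-1.22 ± 0.14). Known activators and known restrainers of Cyp7a1 were thus among those that fell. The FGF19 receptor Fgfr4 had no unit of its own.

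**Figure D4:**
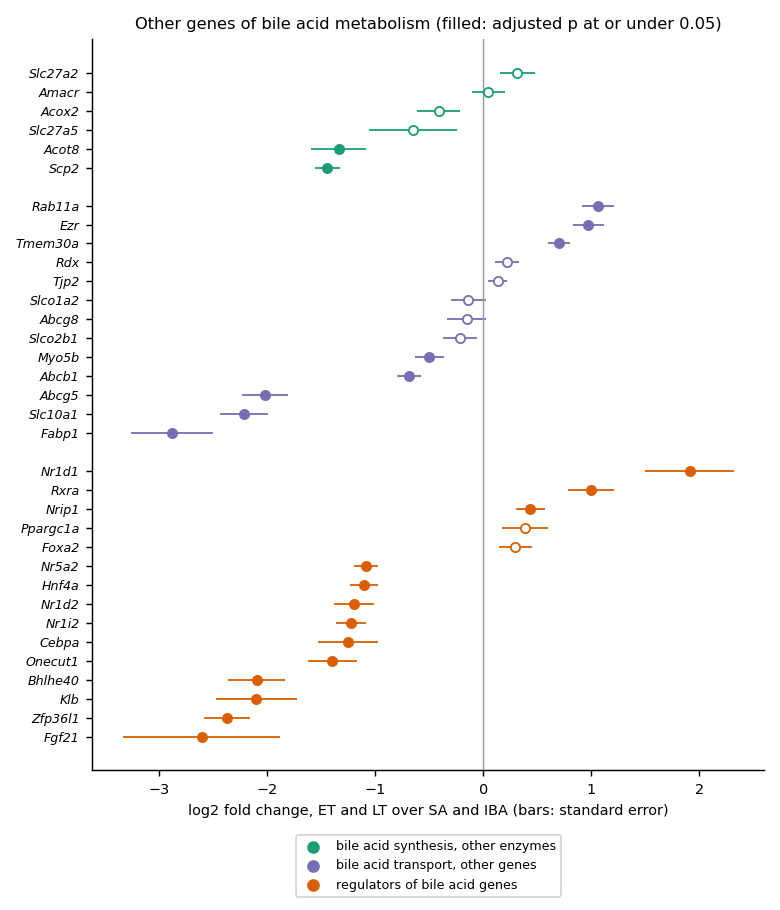
Log2 fold change from warm (SA and IBA) to torpid (ET and LT) states of 34 of the 35 other genes of bile acid metabolism, grouped as synthesis (green), transport (purple) and regulators (orange), with standard errors as bars. Filled points passed an adjusted p of 0.05. The transport genes Slc10a1, Abcg5 and Fabp1 and the regulators Zfp36l1, Bhlhe40 and Klb are among those under -2. Rab11a and Ezr are among those near 1.

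Over the 14 libraries, the single-gene units whose log2 CPM followed Cyp7a1 most closely were Ido2 (Pearson r = 0.959), Bhlhe40 (0.950), Zfyve1 (0.943), Etnk2 (0.941) and Pbld (0.941). The libraries share their states, so that these values describe a common profile over the states and are not tested. Ido2, a tryptophan-degrading enzyme, went from 463 CPM ± 122 in SA through 345 ± 27.0 in IBA and 264 ± 22.4 in Ent to 165 ± 17.8 in ET and 160 ± 24.2 in LT. Its range was far narrower than that of Cyp7a1.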

How the data were processed

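GRO-seq libraries of liver nuclei from 14 female squirrels were used. The authors trimmed reads with cutadapt, aligned them to HiC_Itri_2 with BWA, kept unique reads, redefined gene bodies with fstitch, removed the first 500 nt, merged overlapping genes and counted reads with featureCounts (versions not given in the sources used here). The study prepared all libraries in parallel. The deposited values are raw counts per unit, not normalized.

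Counts of all 6324 units were scaled by TMM and fitted without a filter in edgeR 4.0.16 (R 4.3.3), by the quasi-likelihood test over 14 libraries in 5 states, with Benjamini-Hochberg adjustment over all units. Log2 CPM were taken with a prior count of 2. The SE is the log2 fold change divided by the root of F, and intervals span 1.96 SE. Python 3.11.15, pandas 2.3.3, numpy 2.4.6, scipy 1.17.1 and matplotlib 3.10.9 were used for tables and plots. The steps were tested on simulated data. Total counts per library set the precision, and levels of a few reads carry Poisson intervals, which cover counting error only.

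The members and lists were chosen with earlier results of these data known. Named are all members, up to 6 genes per related list with the smallest p past 0.001 over the 5 states, Slc10a1, Fgfr4, Klb, Nr5a2 and Hnf4a, and the 5 units most correlated with Cyp7a1, except that some items are not reported here. The alternatives tried were other scalings, DESeq2 1.42.0, limma 3.58.1 with voom, a count filter, single-gene units, compared groups only, other thresholds, season, replicate number as a block and each library left out.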

Additional observations from a re-analysis of the deposited data

How the results depend on the processing

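No change of a called unit reversed under any alternative. Of the counts recomputed, 178 stayed within 1.5 times the main count and 32 did not, and the cause was not tested. With the other threshold (0.05 over the 5 states, 0.001 in contrasts) the members called were 7 over the 5 states. They were 0 in each of the steps SA to IBA (1 of all units), IBA to Ent (2), Ent to ET (140) and LT to IBA (1102). Over the 5 states 24 related genes passed, beside 3924 of all 6324 units. With a 2-fold minimum 1 was called from IBA to Ent (293 of all units) and 4 from warm to torpid (1581). DESeq2 called 6 members and 23 related genes over the 5 states, beside 3164 of all units. The main fit called 4 members, 14 related genes and 1612 of all units. Cyp7b1 passed in DESeq2 (adjusted p = 4.9e-06) and not in edgeR (adjusted p = 0.00308). The Nr1h4 unit likewise passed in DESeq2 (adjusted p = 2.65e-07) and not in edgeR (adjusted p = 0.00111). limma-voom called 2 members over the 5 states (1504 of all units), where Cyp7a1 had an adjusted p of 0.0286 and Cyp8b1 of 0.0439. From SA to IBA it called 0 (358 of all units). It lost Cyp8b1 from Ent to ET (-3.95, adjusted p = 0.0832) and from LT to IBA (2.98, adjusted p = 0.199). Cyp7a1 from LT to IBA was lost too (5.38, adjusted p = 0.0995). A minimum of 10 counts in every library, which removes Cyp7a1 and Cyp8b1, left 2 over the 5 states (1604 of 6292 units) and 0 from SA to IBA (324). Single-gene units only, which removes 3 of the 9, gave 2 over the 5 states (1294 of 4705 units). It gave 0 from IBA to Ent (813) and 1 from Ent to ET (1392). From SA to IBA, 0 were called with season as a term (310 of all units) and with the compared groups only (176). Within the season that holds both states 0 were called as well (186 of all units). That alternative was chosen after seeing the data, as was edgeR with adjusted deviances. Season as a term left 3 from LT to IBA (2315 of all units).

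Leaving out each library in turn gave 4 to 5 members over the 5 states, 0 to 3 between SA and IBA, 2 to 3 between IBA and Ent, 2 to 4 between Ent and ET, 0 to 0 between ET and LT, 3 to 7 between LT and IBA (3 without LT replicate 3) and 7 to 7 from warm to torpid, and 9 to 15 related genes, with 9 without IBA replicate 2. Over the 5 states 1612 of all 6324 units passed in the main fit and 1139 without IBA replicate 2. Where LT was left with 1 library, it was assumed to vary like the other groups.

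Replicate numbers do not pair the animals. Deviations of same-numbered libraries had correlations of -0.263 to 0.234 over 26 pairs, and 3 of 14 libraries correlated best with their own number. With the replicate block 1 member was called from SA to IBA, Cyp8b1, and Cyp7a1 had -2.56 (adjusted p = 0.0901), and the Nr1h4 unit passed over the 5 states (adjusted p = 0.000898). Low reads limit Cyp7a1 in ET and LT, and 2 LT libraries limit all comparisons with LT.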

Other observations

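SA replicate 2 stood apart from the other SA libraries in further genes, which were chosen after their values were seen. Among the 25 units in which it lay at least 4-fold lower were Igfbp1, a fasting-responsive binding protein of insulin-like growth factors, at 226 CPM against 2354 and 1150, and Krt23, a keratin, at 7.43 against 72.5 and 67.4. The unit CYP1A1_like had 9.90 CPM against 155 and 155. Among the 9 units in which it lay at least 4-fold higher were Igf1, a liver-made growth hormone target, at 1012 CPM against 79.3 and 110, Cp, which encodes the copper carrier ceruloplasmin, at 1137 against 178 and 225, and Cd44, a hyaluronan receptor, at 307 against 42.9 and 26.7. The IBA libraries lay between 264 and 488 CPM for Igf1 and between 1477 and 3222 for Igfbp1. These values are of 1 animal and were not tested.

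The exporter Abcb11 had its closest profiles in Dennd4a (r = 0.935 over 14 libraries), Ago4 (0.922) and the unnamed unit G9236 (0.912), which were likewise chosen after seeing the data and outside the naming rule. Dennd4a, a Rab exchange factor, went from 254 CPM ± 48.0 (SD, n = 3) in SA to 391 ± 38.6 in ET and 402 ± 36.7 (n = 2) in LT. Ago4, an argonaute protein, went from 57.6 ± 15.3 in SA to 112 ± 6.61 in ET and 122 ± 8.25 in LT.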
